A study of Mus musculus with 24 samples.

Results

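The extracellular matrix genes of the mouse dorsal root ganglion, the cluster of sensory neurons, glia and connective tissue beside the spinal cord, were followed here through 3 kinds of deposited data. The members were chosen by gene symbol alone: every collagen chain (Col, digits, a, digits), every laminin chain (Lama, Lamb or Lamc and a digit), and Fn1, Fbn1, Dcn, Lum and Pdgfra. This gave 60 of the 24421 genes in the RNA-seq table, namely 44 collagens, 11 laminins and 5 others, and the same 60 in the MeRIP-seq table. The study, titled as one of epitranscriptomic m6A regulation in axon regeneration, measured RNA levels by RNA-seq, transcripts pulled down with an antibody to N6-methyladenosine (m6A) by MeRIP-seq, and single m6A sites by miCLIP. RNA-seq covered wild-type and Mettl14cKO mice, each naive and in SNLD1 samples, with 3 libraries in each of the 4 groups. Mettl14 is a subunit of the enzyme that writes m6A. MeRIP-seq covered wild-type ganglia only, with 3 immunoprecipitated (IP) and 2 input libraries in each condition, and miCLIP 1 wild-type library in each condition.

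All libraries came from L4/5 ganglia of C57BL/6 mice, and the genotype field gives the Mettl14cKO animals as Mettl14-/-. Neither the Cre driver behind "cKO" nor the animals' age is given in the sources used here, so the cells that lacked Mettl14 are not known from them. The treatment text names sham surgery or sciatic nerve crush for every library alike, while the titles read naive or SNLD1, taken here as 1 day after the nerve lesion. The miCLIP titles read naive and SNL, with no day.

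Collagens are the structural proteins of connective tissue. Fibrillar types give endoneurium and epineurium their strength, type IV collagen and laminin trimers form the basement membranes around Schwann cells, satellite glia and vessels, and type VI builds beaded filaments. In nerve, fibroblasts make most fibrillar collagen together with small proteoglycans such as decorin (Dcn) and lumican (Lum), and they carry the receptor encoded by Pdgfra. Schwann cells contribute laminins and type IV collagen, and laminin is known as a permissive surface for axon growth.

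Of the 60 members, 40 passed the filter on low counts in RNA-seq: 27 collagens, 8 laminins and all 5 others. The 20 that did not pass held between 2 and 91 counts summed over the 12 libraries, Lama1 and Col4a5 among them, so nothing is reported of their change. RNA-seq libraries held 5707837 to 12639160 counts. Levels are given as CPM, counts per 1000000 of the library total after scaling by edgeR's TMM factors. They are compared between libraries and not between genes, because CPM is not corrected for transcript length. Differences are log2 ratios with their standard error (SE) from edgeR's quasi-likelihood fit, and a gene was called where the p-value adjusted by Benjamini-Hochberg over all 13291 tested genes was under 0.05. The labels do not say whether libraries of a group came from separate animals, so these p-values measure the spread between libraries, which may be technical.

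Some libraries stood apart before any comparison. The 11 fibrillar collagens, tested or not, summed to 200.9 CPM in Mettl14cKO naive library 1. The other 5 Mettl14cKO libraries had 81.2 to 112 CPM and wild type 91.2 to 186.8. Mettl3 in Mettl14cKO naive library 1 (46 CPM) lay with the wild-type libraries (44.0 to 54.4) and not with the other Mettl14cKO libraries (26.9 to 33.8). Wild-type SNLD1 library 1 was low across the members, with a median of −0.48 on the log2 scale against their own mean over libraries. Mettl14cKO SNLD1 libraries 1 and 3 held 108.9 and 175.4 CPM of adipocyte markers against at most 17.6 elsewhere. Mettl14 lay at 14.2 to 18.9 CPM in Mettl14cKO and 19.4 to 24.1 in wild type. Y-linked transcripts ranged from 0 to 451.8 CPM and differed within groups.

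The first question was whether the matrix genes differed between Mettl14cKO and wild-type ganglia. Averaged over naive and SNLD1 samples, Pdgfra and Dcn were higher in Mettl14cKO and Col28a1 was lower, and the other 37 tested members were not called. These 3 calls are 7.5% of the 40 members, where 3.33% of all 13291 genes were called. At an unadjusted p under 0.05 the count was 11 of 40, against 17% of all genes. The median log2 difference of the 40 members was 0.01 and that of all genes −0.0013, with 21 of the 40 members above 0.

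Pdgfra encodes the receptor for platelet-derived growth factor that marks fibroblasts of the nerve. It measured 11.9, 10.2 and 12.6 CPM in wild-type naive libraries and 4.91, 9.04 and 9.76 in wild-type SNLD1 libraries. The Mettl14cKO naive libraries gave 15.8, 15.9 and 21.9 CPM and the Mettl14cKO SNLD1 libraries 21.8, 21.8 and 20.9. All 6 Mettl14cKO libraries lay above all 6 wild-type libraries. Pdgfra was the only tested member without overlap between the genotypes, which is 2.5% of the members beside 2.18% of all genes. Its mean over conditions was 2.04-fold higher in Mettl14cKO, a log2 difference of 1.03 (SE 0.16, adjusted p = 0.00174, edgeR). In a bulk sample like these, more cells of a type and more RNA per cell cannot be told apart.

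Dcn, a small proteoglycan that binds collagen fibrils, measured 1555, 1652 and 1445 CPM in wild-type naive libraries and 1475, 1839 and 1464 in wild-type SNLD1 libraries. In Mettl14cKO it measured 2855, 1804 and 2007 CPM in naive and 3008, 3954 and 2371 in SNLD1 libraries. The genotypes did not overlap within either condition. Over all libraries they overlapped only through Mettl14cKO naive library 2, which lay below wild-type SNLD1 library 2. The difference averaged over conditions was 0.74 on the log2 scale (SE 0.14), or 1.67-fold, with an adjusted p of 0.00609 by edgeR's quasi-likelihood test.

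Col28a1 encodes a collagen of the beaded filament group that is known in peripheral nerve at non-myelinating glia and nodes. It measured 22.9, 24.9 and 17.3 CPM in wild-type naive, 13.9, 29.9 and 22.1 in wild-type SNLD1, 15.4, 12.4 and 15.5 in Mettl14cKO naive and 14.4, 12.1 and 9.82 in Mettl14cKO SNLD1 libraries. The genotypes overlapped through 1 low wild-type library, SNLD1 library 1. The Mettl14cKO mean was 1.65-fold lower (−0.73 on the log2 scale, SE 0.18, adjusted p = 0.0300 by edgeR). This call was lost in 10 of the 18 alternative fits, although the estimate stayed between −0.84 and −0.56 over all 18. It was −0.72 (adjusted p = 0.0999, edgeR) without the 2 libraries of high adipocyte markers and −0.56 (adjusted p = 0.0931, edgeR) after adjusting for the share of Y-linked counts, while Pdgfra and Dcn remained called in all 18.

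**Figure D1:**
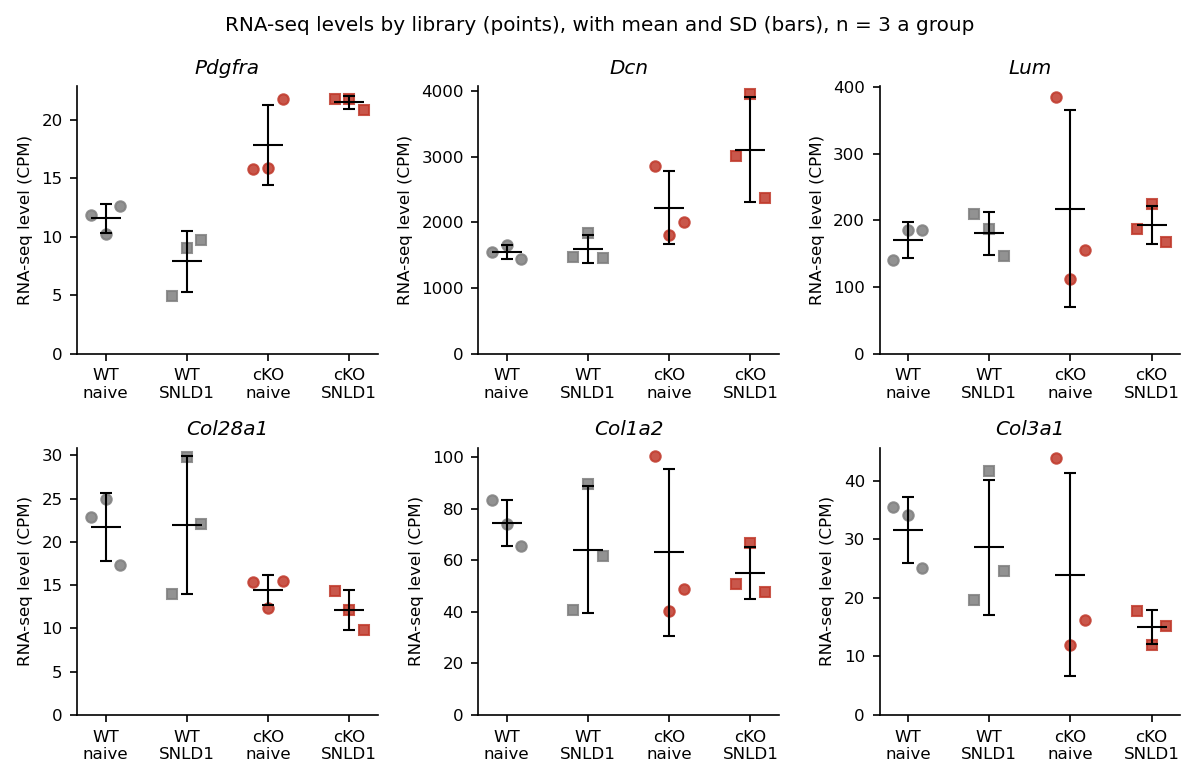
CPM of Pdgfra, Dcn, Lum, Col28a1, Col1a2 and Col3a1 in each of the 12 RNA-seq libraries (points) by group, with the group mean and SD (n = 3). Pdgfra is higher in all 6 Mettl14cKO libraries, while Col3a1 and Lum each have 1 high Mettl14cKO naive library, at 43.8 and 386 CPM.

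The remaining fibroblast matrix genes were not called. Lum, a second small proteoglycan of collagen fibrils, measured 139.9, 186 and 185 CPM in wild-type naive, 209.7, 187 and 146 in wild-type SNLD1, 386, 111 and 155 in Mettl14cKO naive and 188, 224 and 167 in Mettl14cKO SNLD1 libraries. Mettl14cKO naive library 1 was far above the others, and the log2 difference between genotypes was 0.22 (SE 0.22). Fibronectin (Fn1), which links cells to the matrix through integrins, measured 9.77, 8.86 and 14.1 CPM, 7.51, 15.6 and 9.88 CPM, 20.8, 11.7 and 13.4 CPM and 15.6, 21 and 12.2 CPM in the same order of groups, a log2 difference of 0.52 (SE 0.21, adjusted p = 0.203, edgeR). Its genotypes overlapped, and so did those of Fbn1. Fibrillin (Fbn1), the scaffold of elastic microfibrils, measured 9.67, 12.9 and 7.83 CPM in wild-type naive, 6.75, 16.1 and 5.49 in wild-type SNLD1, 13.3, 9.25 and 15.4 in Mettl14cKO naive and 11.4, 13.1 and 14.2 in Mettl14cKO SNLD1 libraries, with a difference of 0.39 (SE 0.23). Over all libraries the 5 fibroblast matrix genes thus had positive genotype estimates, 2 of them called, with a median log2 difference of 0.52. For Lum, the Mettl14cKO libraries other than naive library 1 lay at 111 to 224 CPM, beside 139.9 to 209.7 in wild type. The sign of its estimate without that library was not examined.

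The fibrillar collagens had estimates mostly on the other side: 7 of the 9 tested lay below 0, none was called by edgeR, and their median log2 difference was −0.40. Type I collagen, the main fibril of connective tissue, gave for Col1a2 83.6, 74 and 65.6 CPM in wild-type naive, 40.6, 89.7 and 61.9 in wild-type SNLD1, 100.3, 40.3 and 48.9 in Mettl14cKO naive and 51, 66.7 and 47.7 in Mettl14cKO SNLD1 libraries. Wild type and Mettl14cKO overlapped across most of their range, and the difference was −0.23 (SE 0.21). Col1a1, its partner chain, had −0.54 (SE 0.25, adjusted p = 0.284, edgeR). Its log2 CPM was 4.045, 3.892 and 3.534 in wild-type naive and 3.119, 4.168 and 3.824 in wild-type SNLD1 libraries. In Mettl14cKO it was 4.124, 2.207 and 2.922 in naive and 3.191, 3.379 and 3.116 in SNLD1 libraries. The genotypes overlapped.

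Col3a1, type III collagen of fine reticular fibrils, measured 35.5, 34.1 and 25.2 CPM in wild-type naive and 19.6, 41.6 and 24.5 in wild-type SNLD1 libraries. In Mettl14cKO it measured 43.8, 11.9 and 16.1 CPM in naive and 17.8, 12 and 15.2 in SNLD1 libraries. All Mettl14cKO libraries except naive library 1 lay below all wild-type libraries. The difference over all libraries was −0.67 (SE 0.26, adjusted p = 0.184, edgeR). Without Mettl14cKO naive library 1 it was −1.05 with an adjusted p of 0.00575 by edgeR. The number of members called then rose from 3 to 5, the added ones being Col1a1 and Col3a1, both lower. Of all genes 464 were then called, in place of 442. That library was singled out after its values were seen.

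Among the other fibrillar chains, Col24a1, a fibrillar collagen best known from developing bone and cornea, came nearest to the threshold. It measured 4.06, 3.82 and 4.79 CPM in wild-type naive, 3.22, 3.89 and 5.74 in wild-type SNLD1, 1.94, 2.27 and 3.85 in Mettl14cKO naive and 2.49, 2.25 and 1.82 in Mettl14cKO SNLD1 libraries, a difference of −0.81 (SE 0.24) with an adjusted p of 0.0750 by edgeR. Only Mettl14cKO naive library 3 reached into the wild-type range. Col5a1, a type V chain that sets fibril diameter, had −0.69 (SE 0.30), and Col11a1 −0.40 (SE 0.21). Col5a2 and Col5a3 had the 2 estimates above 0, at 0.11 and 0.02.

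Basement membrane genes showed no called difference between genotypes. The network-forming collagens had 4 of 6 tested members above 0, with a median of 0.24, and the laminins 5 of 8. Col4a1, the common chain of basement membrane collagen, measured 12.7, 11.7 and 9.27 CPM in wild-type naive, 7.21, 16.9 and 12 in wild-type SNLD1, 13.9, 12.6 and 11.3 in Mettl14cKO naive and 15.3, 16.6 and 9.82 in Mettl14cKO SNLD1 libraries. Its genotypes overlapped over nearly the whole range (0.18, SE 0.19). Col8a2, a short-chain network collagen of endothelium, was the network member of smallest p, with 2.61, 2.04 and 2.81 CPM in wild-type naive and 1.23, 3.09 and 0.976 in wild-type SNLD1 libraries. It measured 7.77, 1.92 and 4.97 CPM in Mettl14cKO naive and 3.55, 2.4 and 5.19 in Mettl14cKO SNLD1 libraries, a difference of 1.0 (SE 0.34, adjusted p = 0.12, edgeR). Col8a1, its partner, had −0.23 (SE 0.20).

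Among laminins, the Lama2 chain of Schwann cell basement membrane measured 27.9, 34.1 and 25.7 CPM in wild-type naive, 17, 28.9 and 24.3 in wild-type SNLD1, 34.8, 31.2 and 28.9 in Mettl14cKO naive and 27.4, 34.5 and 20.1 in Mettl14cKO SNLD1 libraries. Lamb1, its usual beta partner, measured 33.2, 38.6 and 30.5 CPM, 23.4, 44.3 and 33.7 CPM, 39.5, 35.6 and 30.8 CPM and 32.9, 33.5 and 32 CPM in that order. The genotype estimates were 0.17 (SE 0.15) for Lama2 and 0.00 (SE 0.14) for Lamb1, within the spread of the libraries. Lama4, the chain of vessels and nerve, had −0.19 (SE 0.13). Lamc1, the common gamma chain, had 0.15 (SE 0.15).

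The minor collagens filled in the rest. Type VI chains gave 0.09 (SE 0.22) for Col6a1, 0.10 (SE 0.27) for Col6a2 and −0.60 (SE 0.27) for Col6a3, so the 3 chains that assemble together did not share a sign, though none was called. All 4 fibril-associated collagens lay below 0, from −0.61 (Col14a1) to −0.03 (Col19a1), and none was called. Col15a1, a multiplexin of vessel and nerve basement membranes, had −1.23 (SE 0.69) at 0 to 2.24 CPM, and Col18a1 0.04. The transmembrane collagens Col23a1 and Col25a1 had 0.15 and 0.31.

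**Figure D2:**
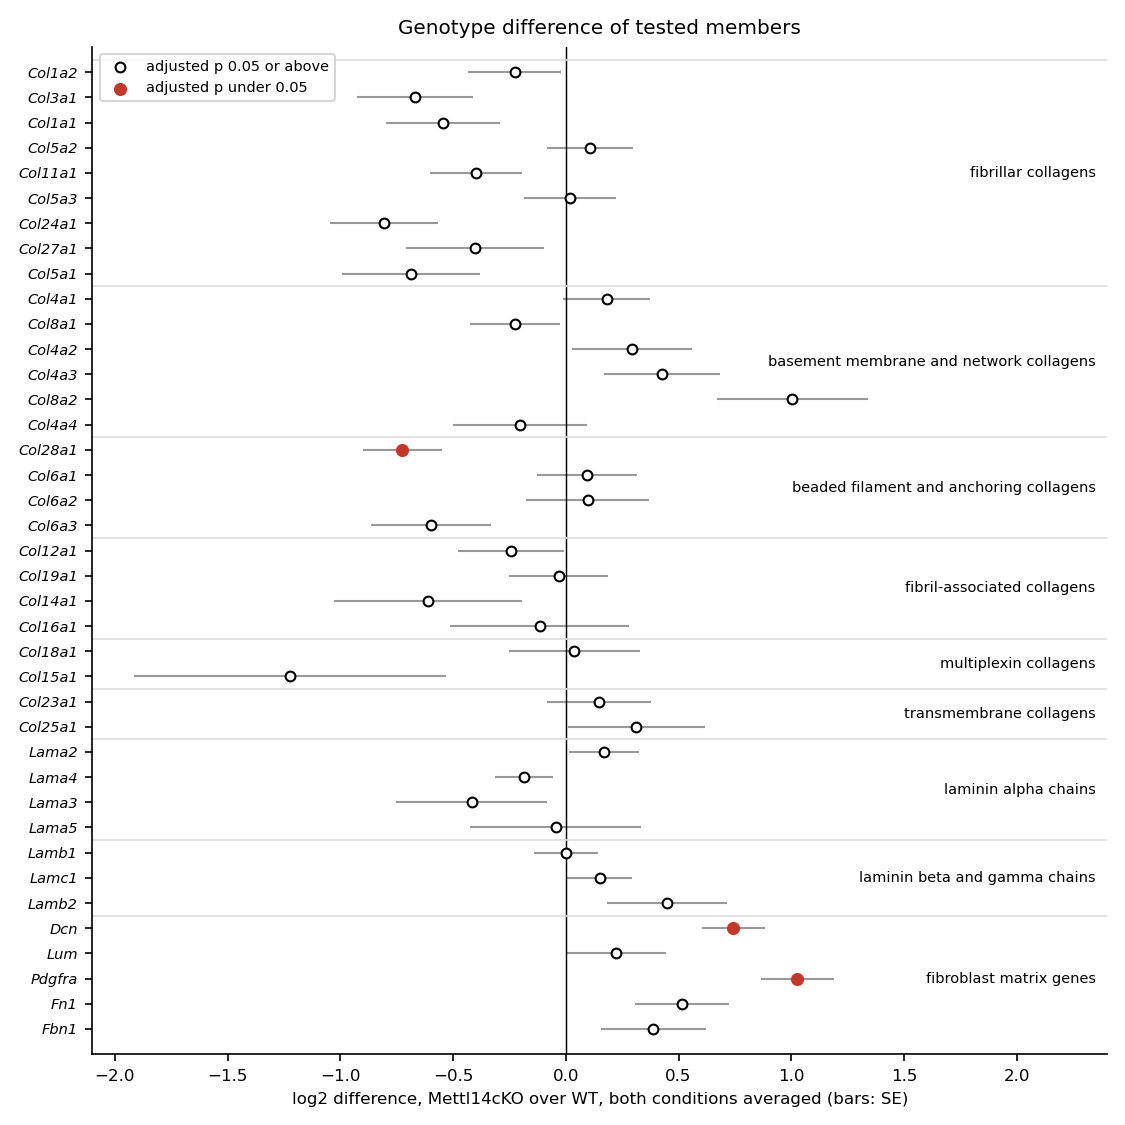
Log2 difference of Mettl14cKO over wild type, averaged over naive and SNLD1, with its SE, for 39 of the 40 tested members, grouped by role. Pdgfra (1.03) and Dcn (0.74) are called higher and Col28a1 (−0.73) lower, and 7 of 9 fibrillar collagens lie below 0.

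Taken by condition, the genotype difference was called only in SNLD1 samples. There Pdgfra was 2.7-fold higher (1.43, SE 0.23, adjusted p = 0.00512, edgeR) and Dcn 1.95-fold higher (0.97, SE 0.20, adjusted p = 0.0202, edgeR). These 2 calls are 5% of the members, with 1.46% of all genes called in that comparison and 0.948% called higher. The groups did not overlap in 8 of the 40 members, a share of 20%, and 20% of all genes did not overlap either. Col28a1 (−0.87, adjusted p = 0.0917, edgeR) missed the threshold and was called by DESeq2 (adjusted p = 0.0429), as were Pdgfra and Dcn. DESeq2 called 7.5% of the members there, beside 3.13% of all genes. The Pdgfra call was lost without the 2 libraries of high adipocyte markers (1.46, adjusted p = 0.0565), and the Dcn call without wild-type SNLD1 library 1 (0.91, adjusted p = 0.0850) or 3 (0.92, adjusted p = 0.111), or Mettl14cKO SNLD1 library 1 (0.99, adjusted p = 0.0822) or 2 (0.76, adjusted p = 0.0979).

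In naive samples no member was called, with 0.286% of all genes called. At an unadjusted p under 0.05 there were 4 of 40 members against 7.6% of all genes. DESeq2 called no member and 0.579% of all genes. The genotypes did not overlap in 4 of 40 members (10%), beside 10.8% of all genes. Pdgfra was 0.62 (SE 0.23), Dcn 0.52 (SE 0.20), Col8a2 0.97 (SE 0.45) and Col28a1 −0.58 (SE 0.25), each with an adjusted p of 0.457 or more by edgeR. The difference between the conditions was itself tested as an interaction. For Pdgfra it was 0.81 (SE 0.33, unadjusted p = 0.0233, adjusted p = 0.998, edgeR) and for Dcn 0.45 (SE 0.28, adjusted p = 0.998, edgeR). No member was called in the interaction, and no gene was (0% of 13291). An unadjusted p under 0.05 was found for 2 members, against 3.7% of all genes. DESeq2 called 0 members and 0.0226% of all genes. A genotype effect that differs between naive and SNLD1 samples was therefore not shown for any member.

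The second question was the response to the lesion. No member was called in either genotype or in their average. In wild type 1.02% of all genes were called by edgeR, and 2 of 40 members had an unadjusted p under 0.05 against 7.34% of all genes. DESeq2 called 0 members there and 1.59% of all genes. In Mettl14cKO 0.685% of all genes were called, and 3 members had an unadjusted p under 0.05 against 10.6%. DESeq2 called 0 of the 36 members it adjusted there and 1.53% of all genes it adjusted. In the average 2.56% of all genes were called, and 1 member had an unadjusted p under 0.05 against 13%. DESeq2 called 0 members there and 3.54% of all genes. The estimates of the average lay above 0 for 10 of 40 members, against 48.8% of all genes, with a median of −0.13 against −0.0065. All 9 tested fibrillar collagens lay below 0, with a median of −0.20.

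The member of smallest p in the averaged lesion response was Col12a1, a collagen bound to fibril surfaces. It measured 11.4, 7.5 and 9.05 CPM in wild-type naive and 3.53, 9.38 and 7.08 in wild-type SNLD1 libraries, then 12, 9.43 and 5.71 in Mettl14cKO naive and 5.51, 3.95 and 5.61 in Mettl14cKO SNLD1 libraries. In Mettl14cKO every SNLD1 library lay below every naive one, and in wild type SNLD1 library 2 reached into the naive range. Its difference was −0.66 (SE 0.24, unadjusted p = 0.0124, adjusted p = 0.194, edgeR). Lamc1 was 13.4, 17 and 14.5 CPM in wild-type naive, 12.9, 15.6 and 16.7 in wild-type SNLD1, 24.5, 18.2 and 17.5 in Mettl14cKO naive and 14.6, 15.9 and 11.1 in Mettl14cKO SNLD1 libraries. Its 2 Mettl14cKO groups did not overlap, the lesion estimate there was −0.53 (SE 0.21, adjusted p = 0.33, edgeR), and the wild-type estimate was 0.01 (SE 0.20). In Mettl14cKO, naive and SNLD1 libraries did not overlap in 2 of 40 members (5%), beside 17.7% of all genes.

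Other lesion estimates with an unadjusted p under 0.05 were Pdgfra (−0.54, SE 0.23) and Col4a4 (0.87, SE 0.40) in wild type, and Dcn (0.49, SE 0.20) and Col12a1 (−0.84, SE 0.34) in Mettl14cKO. Col4a4, a chain of the specialised type IV network, measured 1.06, 1.77 and 1.06 CPM in wild-type naive, 2.91, 1.94 and 2.2 in wild-type SNLD1, 2.09, 1.57 and 1.61 in Mettl14cKO naive and 1.42, 0.705 and 1.68 in Mettl14cKO SNLD1 libraries. In wild type all SNLD1 libraries lay above all naive ones, and in Mettl14cKO the groups overlapped. The difference between the 2 lesion responses was −1.35 (SE 0.59, unadjusted p = 0.0361, adjusted p = 0.998, edgeR). In wild type, naive and SNLD1 libraries did not overlap in 2 of 40 members (5%), beside 11% of all genes. Lama5 (0.30) and Lama3 (0.30) had the highest averaged estimates of the laminins, at 0.448 to 3.68 CPM.

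**Figure D3:**
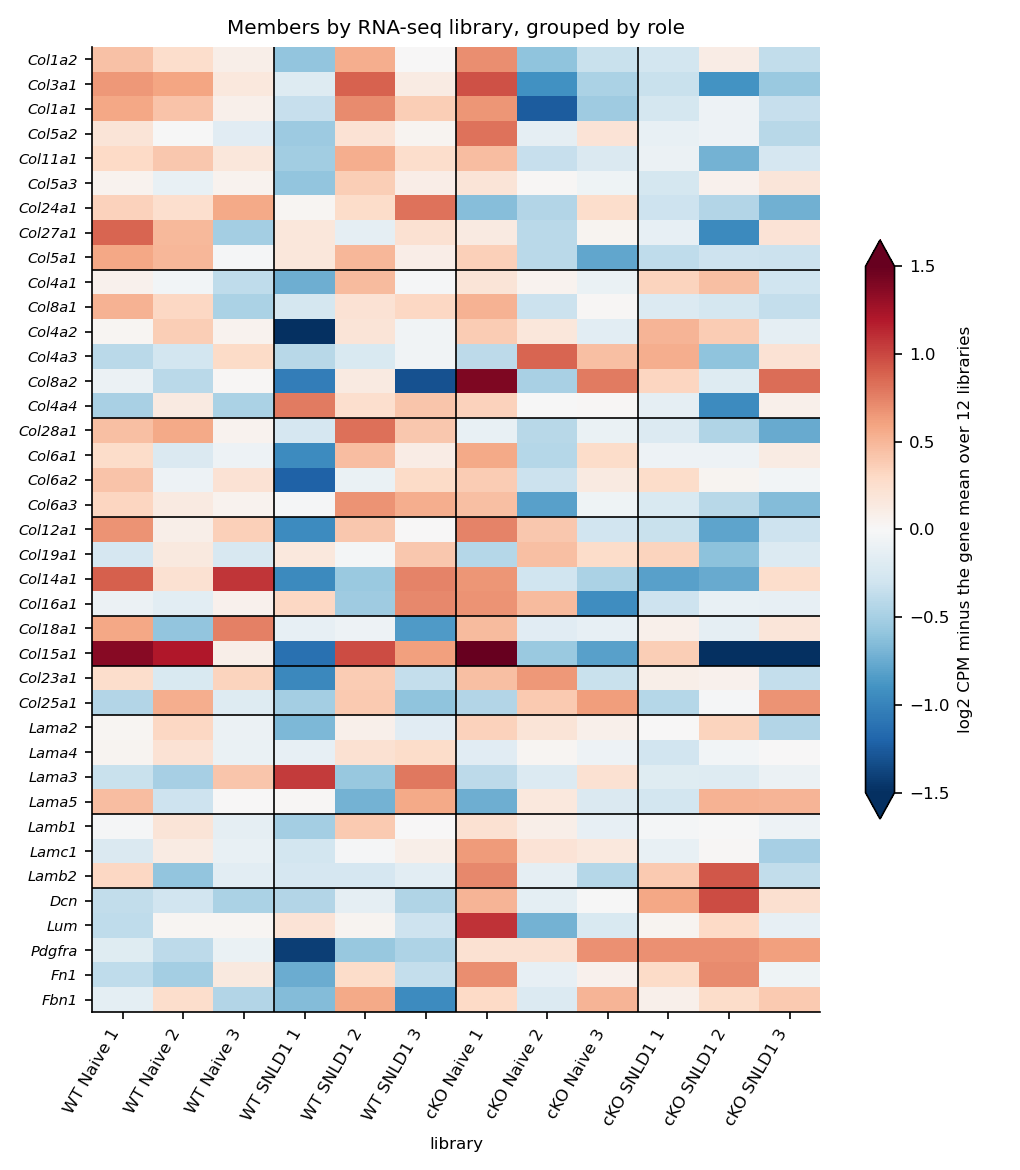
Log2 CPM of 39 of the 40 tested members in the 12 RNA-seq libraries, each gene centred on its mean over libraries, with members grouped by role. Mettl14cKO naive library 1 is high across the fibrillar collagens and wild-type SNLD1 library 1 is low across most members.

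The precision of these statements is limited by the low counts of many members. The median SE over the members was 0.24 in the averaged genotype comparison and 0.33 to 0.35 in comparisons within 1 genotype or condition, where the median over all genes was 0.24. For comparison with a called gene, Timp1, an inhibitor of matrix proteases, measured 3.0, 3.27 and 3.19 CPM in wild-type naive and 20.5, 16.7 and 27.2 in wild-type SNLD1 libraries, and 4.04, 5.41 and 3.97 and 22.7, 26.1 and 13.1 CPM in Mettl14cKO, a log2 difference of 2.49 (SE 0.20, adjusted p = 2.16e-07, edgeR).

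Several genes that act on the matrix were called in the averaged lesion comparison, in which 2.56% of all genes were called. Of 21 tested matrix proteases and inhibitors, 5 rose in the averaged lesion comparison and none fell: Timp1, the urokinase receptor Plaur (2.34, SE 0.29), the membrane metalloproteinase Mmp16 (0.97), the plasminogen activator Plat (0.83) and the proteoglycan-cleaving Adamts1 (0.79). Of 20 tested collagen and laminin receptors, 3 rose, namely the laminin-binding integrin Itga7 (1.13, SE 0.20), the hyaluronan receptor Cd44 (0.46) and syndecan Sdc1 (0.76). Itga7 measured 11, 6.41 and 13.4 CPM in wild-type naive, 30.2, 14.4 and 30.5 in wild-type SNLD1, 9.86, 11.5 and 9.81 in Mettl14cKO naive and 17.8, 24.8 and 19.5 in Mettl14cKO SNLD1 libraries, and every SNLD1 library lay above every naive one. Of 25 collagen-processing enzymes only the lysyl hydroxylase Plod3 (0.76, SE 0.18) rose, and none of 9 basement membrane partners, 33 other matrix proteins and 18 TGF-beta and PDGF signalling genes was called. Whether any of these groups differed from the collagens was not tested as a set.

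For genotype, averaged over conditions, the same lists held few calls, where 3.33% of all genes were called. Thbs4, a thrombospondin of tendon and nerve matrix, was higher in Mettl14cKO (1 of 33 other matrix proteins), with 10.7, 6.68 and 8.67 CPM in wild-type naive, 12.7, 12.6 and 7.69 in wild-type SNLD1, 19.9, 17.6 and 16.1 in Mettl14cKO naive and 24.9, 42.4 and 15.4 in Mettl14cKO SNLD1 libraries (1.18, SE 0.21). All 6 Mettl14cKO libraries lay above all 6 wild-type ones. Of the proteases and inhibitors the macrophage elastase Mmp12 (2.61, SE 0.45) and the matrix-bound inhibitor Timp3 (0.60, SE 0.15) were higher, and of the signalling list the receptor Tgfbr2 (0.57, SE 0.15) and the matricellular Ctgf (1.12, SE 0.27). Adamts3, which trims fibrillar procollagen, was the 1 of 25 processing enzymes called, and it was lower (−0.89, SE 0.23). No receptor and no basement membrane partner was called.

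Some markers of cell types were called for genotype beside Pdgfra and Dcn, where 3.33% of all genes were called. The meningeal, barrier-cell, Schwann cell, neuron and satellite glia lists hold 12, 9, 13, 13 and 10 genes. Of these lists only the sums and the called genes are given, without the directions of the rest. The fibroblast list, which shares no gene with the members, had 12 of 12 tested genes above 0 and 4 called higher (Scara5 1.38, Apod 0.97, Ly6a 0.64 and Gsn 0.45); its summed level was 2208 to 2838 CPM in wild type and 2911 to 7531 CPM in Mettl14cKO, most of it Apod, and none of its 16 genes was at 0 in all libraries. Meningeal markers summed to 48.6 to 235.4 CPM in wild type and 185 to 394 in Mettl14cKO, with Slc6a20a (1.91) and Ptgds (1.32) called higher. Barrier-cell markers summed to 78.4 to 122 and 112 to 150.5 CPM, with Cldn1 (0.90) and Perp (0.79) called higher. Schwann cell markers summed to 4134 to 7417 CPM in wild type and 5138 to 5926 CPM in Mettl14cKO, and only Ncmap (0.87, higher) was called. Neuron markers summed to 14354 to 16743 CPM in wild type and 11916 to 14394 CPM in Mettl14cKO, with Nefl, Nefm, Nefh and Elavl4 called lower. Satellite glia markers summed to 1902 to 2629 CPM in wild type and 1183 to 2657 CPM in Mettl14cKO, the highest being Mettl14cKO naive library 1, with Fabp7 (−1.34) and Ptprz1 (−0.83) called lower. Bone and cartilage markers summed to 76.3 to 158.3 CPM in wild type and 63.6 to 121.3 CPM in Mettl14cKO. Of the adipocyte markers 4 of 4 tested lay above 0, with a median of 2.17 and with Plin4 (4.49) and Fabp4 (2.65) called higher, and Plin4 was called in naive samples too (4.97). Their sum was 1.29 to 15.3 CPM in wild type and 6.95 to 175 CPM in Mettl14cKO. Of 12 macrophage markers 8 lay above 0 and Cd163 (1.84) was called higher, with sums of 76.7 to 133.9 CPM in wild type and 87.1 to 176 CPM in Mettl14cKO. The part of all these markers in the differences of Pdgfra, Dcn and Col28a1 was not tested. Both Pdgfra and Dcn were also called in the average without the 2 libraries of high adipocyte markers (1.04 and 0.91).

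MeRIP-seq compared the antibody-enriched RNA with its input in wild-type ganglia, to ask which transcripts carry more m6A than the average transcript of the library. The libraries held 846785 to 19653733 counts, the 3 shallowest 846785, 927807 and 1534778. The IP library numbered 3 lay nearer to the mean log2 level of the inputs than to that of IP libraries 1 and 2 for 32 of 46 tested members in naive and 34 of 46 in SNLD1. This was counted over the members alone, with no share over all genes. IP library 2 of naive (846785 counts) and of SNLD1 (1534778) had 0 CPM for some members, such as Col14a1, and these values enter the mean. Of the 60 members 46 passed the filter, and none was called in any of the 5 comparisons, each of which called 0% of 14705 genes by edgeR. At an unadjusted p under 0.05 there were 0 of 46 members for IP over input in naive (6.22% of all genes), 1 in SNLD1 (4.13%), 0 for the change between them (0.204%), 0 for the lesion within IP (0.843%) and 0 within input (0.857%). DESeq2 called 0 members throughout, although it gave an adjusted p for only 4 members in the naive comparison. Of all genes it adjusted, it called at most 0.0836% in any of these comparisons. The median SE of the members was near 1.2 and that of all genes 1.075 in naive and 1.085 in SNLD1 for IP over input, and Dcn, with 83217 counts over the 10 libraries, had an SE of 0.98 in naive. An enrichment of about that size was not detectable against this spread between libraries in this fit, which used no replicate block.

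The 1 member with an unadjusted p under 0.05 was Col8a1 in SNLD1. It measured 8.37 and 5.26 CPM in naive inputs and 4.75 and 9.27 in SNLD1 inputs, and 28.2, 21.7 and 10.7 in naive IP and 36.3, 43.6 and 20.2 in SNLD1 IP libraries. Each IP library lay above all 4 inputs. The log2 ratio was 1.57 (SE 0.91) in naive and 2.19 (SE 0.95, unadjusted p = 0.0342, adjusted p = 0.791, edgeR) in SNLD1. Without the IP libraries numbered 3 the ratios were 1.88 and 2.45, and 0 of the 44 members then tested were called, while the fit called 259 genes in naive and 117 in SNLD1. Col28a1 measured 27.2 and 38.9 CPM in naive inputs, 11.9 and 17.7 in SNLD1 inputs, 55.5, 20.7 and 34.4 in naive IP and 60.3, 53.2 and 36 in SNLD1 IP libraries. Its IP and input libraries overlapped in naive and did not in SNLD1, with ratios of 0.17 (SE 0.77) and 1.73 (SE 0.82). All IP libraries of a condition lay above its inputs in 3 of 46 members in naive (6.52%), beside 12.7% of all genes. In SNLD1 this held for 7 of 46 members (15.2%), beside 10.3% of all genes. All IP libraries lay below the inputs in 9 of 46 members in naive (19.6%), beside 16.5% of all genes. In SNLD1 they did so in 3 of 46 (6.52%), beside 12.1%.

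Dcn had estimates on the depleted side. It measured 1889 and 2053 CPM in naive inputs and 1644 and 936 in SNLD1 inputs, against 349, 499.5 and 1776 in naive IP and 249, 396 and 1894 in SNLD1 IP libraries. IP libraries 1 and 2 of both conditions lay below every input, and the IP libraries numbered 3 lay with the inputs. The ratios over all libraries were −1.17 (SE 0.98) and −0.61 (SE 0.99) and were not called. Lamb1, with 102 and 87.8 CPM in naive inputs and 34.8, 41.5 and 60.8 in naive IP libraries, had −1.05 (SE 0.73) and −0.71 (SE 0.73). Lum had no such order, with 222 and 140.2 CPM in naive inputs and 178, 315 and 141 CPM in naive IP libraries.

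**Figure D4:**
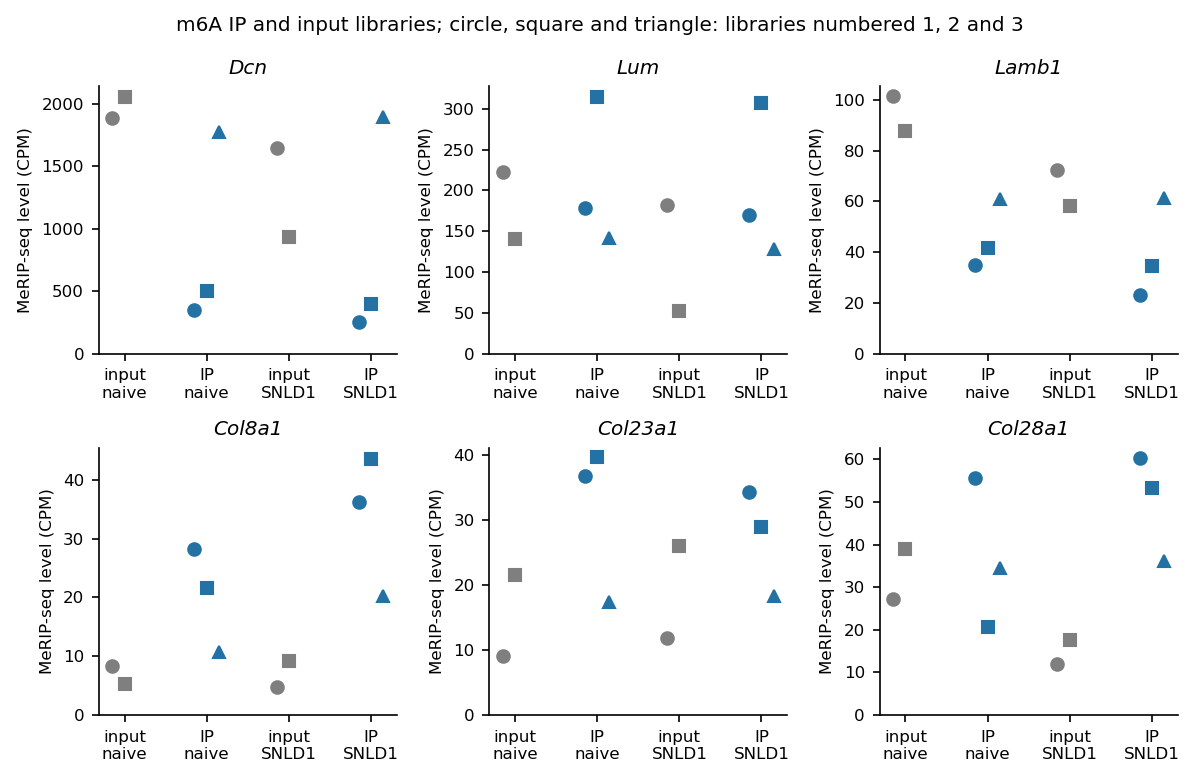
CPM of Dcn, Lum, Lamb1, Col8a1, Col23a1 and Col28a1 in the 10 MeRIP-seq libraries (points), by input or IP and naive or SNLD1. Col8a1 is higher in every IP library than in every input, and Dcn is lower in IP libraries 1 and 2 but not in those numbered 3.

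The other ratios of smallest p rested on few counts. Col6a2 had 1.75 (SE 1.17) and Col4a3 −2.41 (SE 1.51) for IP over input in naive, and Lama4 −1.59 (SE 1.06) there and −1.18 (SE 1.06) in SNLD1. Lama2 had −1.37 and −1.56. Over all 46 members the median ratio was −0.14 in naive and −0.32 in SNLD1, where all genes had 0.07 and 0.10. Leaving out 1 library moved the members' median between −0.34 and −0.01 in naive and between −0.52 and 0.74 in SNLD1. Its sign in SNLD1 was therefore not stable.

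miCLIP lists single bases at which crosslinked antibody left mutations in the reads, 14446 sites in naive and 18677 in SNL. Members held 78 of the naive and 81 of the SNL sites, at 148 distinct positions, of which 141 were in collagens. At least 1 site lay in 25 of 60 members: 20 of 44 collagens, 3 of 11 laminins, and Dcn and Pdgfra of the 5 others. Among members tested in RNA-seq the share was 57.5% (23 of 40, exact binomial 95% interval 40.9% to 73.0%), beside 43.4% of the 12703 tested genes that could be matched to gene positions. The intervals cover counting error only. Sites were assigned by whole gene span, and neither span length nor RNA level was matched between members and all genes. A site rested on little: 150 of the 152 listed collagen sites had 1 mutated read, against 89.9% of all listed sites, and member sites were covered by 2 to 10 reads with a median of 3. There was 1 library in each condition, so no difference between naive and SNL was tested.

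The sites clustered in a few collagens. Col4a1 held 13 naive and 17 SNL sites, Col28a1 15 and 7, Col16a1 6 and 15, Col5a3 7 and 5, and Col4a2 4 and 7. Col3a1 held 7 and 2, Col23a1 5 and 3, and Col6a2 1 and 7. Col4a1 and Col4a2, the partner chains of type IV collagen, lie head to head on opposite strands of chromosome 8 in the RefSeq annotation. Their spans overlap from 11312805 to 11312889 (GRCm38.p6), where counts made without strand could not be told apart. Lamc1 held 3 sites over both lists and Lamb1 and Lamb2 1 each, and none was listed in Lum, Fn1 or Fbn1. Of the 141 distinct collagen sites 11 (7.8%, interval 3.96% to 13.5%) were in both lists, beside 13.1% of all distinct sites.

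The 5 bases around a site, with the methylated A in capitals, show how the collagen sites were composed, and the most frequent and the single sites of the called members are given here in DNA letters, 5′ to 3′ on the transcript strand.
Most frequent in collagens: ggAcc
Next in collagens: ggAct
Dcn, naive: agAca
Pdgfra, SNL: tgAct
The m6A writer is known to prefer a purine before the methylated A and a C after it. The first of these made up 51 of 141 distinct collagen sites (36.2%, interval 28.3% to 44.7%), beside 15.5% of the 29143 distinct sites outside the members. The second made up 17.0% against 10.9%. The first context made up 12 of 19 distinct sites in Col28a1, 8 of 12 in Col5a3 and 9 of 20 in Col16a1, and 4 of 25 in Col4a1. The Dcn site lay at chromosome 10, position 97482497 (plus strand), with 3 reads over it, and the Pdgfra site at chromosome 5, position 75195255 (plus strand), with 4 reads (mm10).

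Neighbouring collagen sites often lay at a fixed spacing. Collagen chains contain long stretches in which glycine recurs at regular intervals, so that their coding sequence is itself repetitive. Of 21 pairs of neighbouring collagen sites up to 45 bases apart, 10 (47.6%, interval 25.7% to 70.2%) were a multiple of 9 bases apart and 6 exactly 9, beside 13.4% and 4.03% of 5560 such pairs in other genes. The window, the unit of 9 bases and the context were chosen after the values had been seen, so these shares are a description. In Col16a1 on chromosome 4 (mm10, plus strand), pairs lay at 130058562 and 130058571, 130089541 and 130089550, and 130095563 and 130095572, each with ggAct at the first and ggAcc at the second base. In Col28a1 on chromosome 6 (minus strand), sites lay at 8075377, 8075386 and 8075404, at 8080309 and 8080318, and at 8155378 and 8155405. In Col5a3 on chromosome 9 (minus strand) a pair lay at 20797407 and 20797416. The cause of the spacing was not tested. Whether each site is exonic was not determined, since no exon annotation was used.

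**Figure D5:**
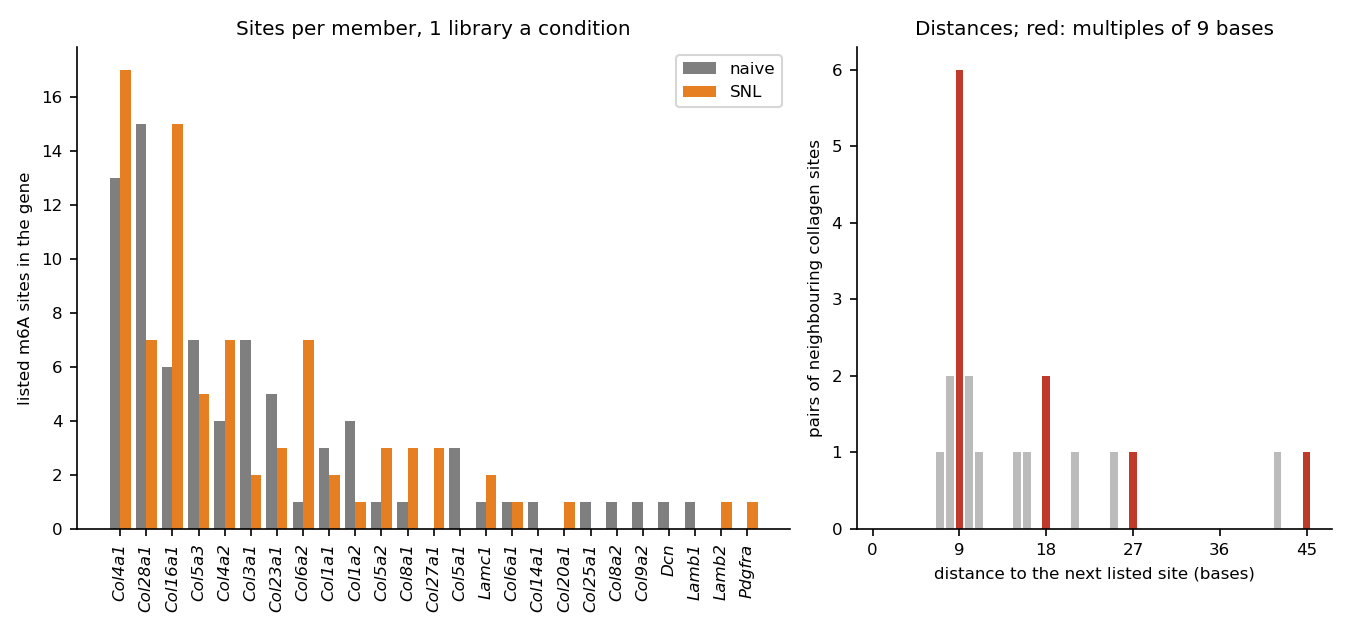
Left, miCLIP sites of each member with a site, in the naive and SNL lists. Right, number of neighbouring collagen site pairs at each distance up to 45 bases, with multiples of 9 in red, where 10 of 21 pairs lie.

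Promoters are shown for Col1a2 and Col3a1, the fibrillar members with the most counts, since type I and III collagen genes are known to be driven from short proximal promoters, and type I genes through a CCAAT box. The 120 bases upstream of the RefSeq start (GRCm38.p6) are given 5′ to 3′ on the gene's strand, with capitals at the CCAAT motif.
Col1a2, chr6:4505498-4505617, plus strand: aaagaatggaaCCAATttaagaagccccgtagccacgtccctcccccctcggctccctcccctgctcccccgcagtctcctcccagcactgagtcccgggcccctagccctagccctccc
Col3a1, chr1:45311418-45311537, plus strand: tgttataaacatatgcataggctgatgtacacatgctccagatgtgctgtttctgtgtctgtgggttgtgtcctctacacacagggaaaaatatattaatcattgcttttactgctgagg
The motif CCAAT was searched on both strands in the 250 bases before the start: 14 of 46 member promoters held it (30.4%) beside 33.9% of 32851 promoters. In Col1a2 it began 109 bases before the start, and no match was found in the printed window of Col3a1, which says only that these letters are not in this window. A match is a description and not a binding site.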

How the data were processed

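Both gene tables (RNA-seq, MeRIP-seq) were deposited as whole-number counts per symbol, unnormalised. The miCLIP lists hold the authors' deposited score per site, which equalled mutated reads over reads at the base within 0.00001 and is therefore a mutated share. Trimmomatic, STAR, DESeq2 and the mm10 build are named, without versions, per the submitters' processing notes. No source used here gives the counter, the strand setting or the site caller. Where genes overlap, their reads could not be told apart.

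Fits were made with edgeR 4.0.16 under R 4.3.3 (filterByExpr, TMM, glmQLFit, glmQLFTest) over 12 RNA-seq libraries as 4 groups and 10 MeRIP-seq libraries as 4 groups, with Benjamini-Hochberg adjustment across all tested genes. The procedure was tested on simulated data. DESeq2 1.42.0, relative-log-expression scaling, no filter, a replicate block, a Y-linked covariate and leaving out each library were alternatives. Values per library are given for called members, the most counted members of each role, the members of smallest p in each direction and those with the most sites. The members and lists were chosen with earlier results of these data known. RefSeq names matched all 60 members, and a gene strand was known for 42 of them. For the other 18, sites were assigned by gene span without strand. Same-numbered MeRIP-seq IP libraries of the 2 conditions deviated together (r 0.682, 0.468 and 0.734), which was taken as pairing within IP. Same-numbered input libraries of the 2 conditions had r 0.408. Input and IP libraries of the same number did not deviate together (r −0.289 to −0.0173). The main MeRIP-seq fit used none of this pairing, also for the lesion within IP. It entered only the alternative with a replicate block. The values of 1 tested member are not reported here, though counts and medians include it.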

Additional observations from a re-analysis of the deposited data

How the results depend on the processing

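Of the 171 alternative counts of called members or sites, 160 stayed within 1.5 times the main count. Most comparisons had a main count of 0, and a count that stayed 0 was taken as within this range. A fall from 3 members to 2, such as by the loss of Col28a1, was also within it. With no filter on low counts the members called were 4 for genotype in SNLD1 (Col28a1, Col3a1, Dcn and Pdgfra) in place of 2. They were 5 for genotype averaged over conditions in place of 3, and 1 for the averaged lesion response (Col12a1) in place of 0. The calls over all genes rose too, from 194 to 570, from 442 to 857 and from 340 to 560 in that order. Leaving out each library in turn gave 1 to 2 members for genotype in SNLD1 and 2 to 5 for the average. In SNLD1 the fits with 1 member called 37, 56 or 84 of all genes, in place of 194. The highest count, 5, came without Mettl14cKO naive library 1, with 464 of all genes called in place of 442. Without the 2 Mettl14cKO SNLD1 libraries of high adipocyte markers, an alternative chosen after seeing the data, 1 member (Dcn) was called in SNLD1 and 2 in the average. With the replicate number as a block the count was the same in 10 of 12 comparisons. For IP over input the block called 1 of 46 members (Dcn, lower in IP) in naive and 1 in SNLD1, in place of 0, and 1078 and 936 of all 14705 genes, in place of 0. Input and IP libraries of the same number were not taken as pairs, since their deviations correlated from −0.289 to −0.0173. Same-numbered RNA-seq libraries correlated from −0.06 to 0.57, so their numbers were not taken as pairs. Requiring 3 mutated reads left 0 members with a miCLIP site, in place of 25.

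Leaving out 1 library changed the sign of the members' median in RNA-seq for injury in wild type (−0.25 to 0.09), for the difference of injury effects between genotypes (−0.23 to 0.125), for genotype in naive (−0.10 to 0.14), in SNLD1 (−0.28 to 0.06) and averaged (−0.06 to 0.12). In MeRIP-seq it changed for IP over input in SNLD1 (−0.52 to 0.74) and for its change with injury (−0.13 to 0.99). The same held for injury within IP (−0.41 to 0.21) and within input (−0.68 to 0.02). Signs of single members were followed only for those called and those of smallest p in each direction of a comparison. Among these, signs changed in MeRIP-seq alone, at few counts. For other named members, such as Lum for genotype, the sign was not followed. Over the left-out libraries Col9a2 ranged from −6.42 to 3.35 for IP over input in SNLD1 and from −6.64 to 3.14 for its change with injury, Lamc3 from −7.93 to 3.96 for that change, and Col16a1 from −5.50 to 2.96 for injury within input, each with its sign changed without SNLD1 input library 2. For injury within IP, Lamc3 ranged from −7.13 to 0.17, the latter without naive IP library 2, and had 0.59 without the 3 shallowest libraries. The cause was not tested.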

Other observations

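Of 11 tested mural cell markers 8 lay above 0 in Mettl14cKO over wild type and 1 was called. Of 10 endothelial markers 6 lay above 0 and 1 was called, where 3.33% of all genes were called. Tagln, the mural gene and a smooth muscle actin-binding protein, was higher in Mettl14cKO (1.08, SE 0.17), with 10.7, 12.7 and 10.4 CPM in wild-type naive, 6.9, 15 and 11 in wild-type SNLD1, 18.8, 17.5 and 13.7 in Mettl14cKO naive and 32, 41.6 and 27.4 in Mettl14cKO SNLD1 libraries. Ly6c1, the endothelial gene and a surface protein, was higher by 0.96 (SE 0.17). Of 6 tested bone and cartilage markers the matrix proteins Comp (1.10, SE 0.30) and Ibsp (−0.89, SE 0.17) were called in opposite directions. Ibsp, a sialoprotein of mineralised tissue, measured 34.2, 30.8 and 20.9 CPM in wild-type naive and 11.4, 15.4 and 10.6 in Mettl14cKO naive libraries. All adjusted p-values were under 0.05 by edgeR.

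In the lesion average, 9 of 12 tested fibroblast markers lay above 0 and 3 below, and 2 were called, where 2.56% of all genes were called: Ly6a (0.65, SE 0.12) and Serping1 (0.46, SE 0.11), both higher. Another 3 had an unadjusted p under 0.05, 2 higher and 1 lower.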
